A study of Mus musculus with 4 samples.

Results

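A set of 10 genes that carry glucose into the cell and on to lactate were followed in single cells of the brown adipose tissue (BAT) of lean and obese mice. These are Slc2a1, Hk2, Pfkp, Aldoa, Tpi1, Gapdh, Pgk1, Eno1, Pkm and Ldha, 10 of the 32285 genes in the deposited count files, and were chosen by symbol as main genes of glycolysis. Aldoa stands under 2 gene identifiers, whose counts of 38160 and 11 unique molecular identifiers (UMIs, each marking 1 captured transcript) in quality-passing cells were added. The cells were the stromal vascular fraction (SVF), that is all cells of the tissue except the mature adipocytes, which float off during isolation. WT mice were C57BL6/J and, per the study's methods, all mice were male. Whether the db/db strain named below shared the background of these WT mice was not tested. The methods also state that tissue was taken 16 h after fasting. The study set obese mice against lean ones with 1 library per group, each from the pooled SVF of 3 mice: WT mice (labelled 10 weeks of age, normal diet), db/db mice, which lack a working leptin receptor and become obese and diabetic (B6.BKS(D)-Lepr db/J, 8 weeks and 16 weeks, marked 8w and 16w in the plots), and WT mice on a high-fat diet (HFD). The HFD library is labelled 10 weeks, while the methods give 10 weeks as the age at which the diet began and also as its length, so the age of these mice is uncertain, and age differs between the groups. With 1 library per group no test between groups was possible. The intervals below, at 95%, hold the error of counting alone, since the variation from mouse to mouse could not be measured, and fewer transcripts per cell and a larger pool of other RNA cannot be told apart in such relative levels.

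Glycolysis splits 1 molecule of glucose into pyruvate in the cytosol, with a small yield of ATP. Slc2a1 encodes GLUT1, a glucose transporter of the cell membrane, Hk2 a hexokinase that traps glucose by phosphorylation, and Pfkp the platelet form of phosphofructokinase, the committed step. Aldoa (aldolase A) and Tpi1 (triosephosphate isomerase) make and interconvert the triose phosphates, Gapdh, Pgk1, Eno1 and Pkm (glyceraldehyde-3-phosphate dehydrogenase, phosphoglycerate kinase 1, enolase 1 and muscle-type pyruvate kinase) act in the part that yields ATP, and Ldha encodes the lactate dehydrogenase subunit that turns pyruvate into lactate. Macrophages that respond to bacterial products or hypoxia are known to lean on glycolysis, and hypoxia-inducible factors are known activators of several of these genes.

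After the study's quality limits (more than 250 but fewer than 6000 genes, more than 500 but fewer than 30000 UMIs, and less than 15% of UMIs from mitochondrial genes) 5944 cells were kept of WT, 11648 of 8-week db/db, 5833 of 16-week db/db and 5462 of HFD, with 26558173 to 53420105 UMIs per library. Lineages were gated on raw UMIs of marker lists that hold none of the 10 genes: a cell needed at least 3 UMIs of 1 list and at least 80% of all its lineage marker UMIs on that list. This gave, in WT, 8-week db/db, 16-week db/db and HFD, 1040, 2492, 2361 and 1427 macrophage-gated cells, 4371, 6955, 1197 and 1667 stromal-gated cells (fibroblasts and adipocyte precursors) and 9, 63, 1225 and 888 endothelial-gated cells, while 8.53% to 26.8% of cells passed no gate. The 16-week db/db library stood apart: its median mitochondrial share was 0.799% against 4.29% to 10.5% elsewhere, and red blood cell genes such as hemoglobins had 15063 CPM in it against 54.1 to 698 CPM (CPM being UMIs of a gene or list per 1000000 UMIs of the pool). It also had 207 CPM of Xist, a transcript of female cells, with 17.7 CPM of Y-linked genes against 164 to 188 CPM in the other libraries, so that it did not match the male sex given by the methods for all mice. Pgk1 lies on the X chromosome. Between 16 and 97 cell barcodes were shared by any 2 libraries. Brown adipocyte genes reached 143 CPM in HFD against 6.86 to 29.5 CPM elsewhere, and skeletal muscle genes 6.18 to 17.2 CPM. The part of these differences in the results below was not tested.

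Macrophages of the obese mice carried more glycolysis transcripts than those of WT, and the 16-week db/db library carried the most. The summed level of the 10 genes in macrophage-gated cells was 843 CPM in WT (822 to 864), 1772 CPM in 8-week db/db (1752 to 1792), 3549 CPM in 16-week db/db (3521 to 3577) and 2017 CPM in HFD (1990 to 2045). Against WT these were 2.10-fold, 4.21-fold and 2.39-fold higher levels. Beside them the list of 5 lipid-associated macrophage markers described below stood at 181, 2039, 5092 and 4636 CPM in these pools, and within perivascular macrophages alone the folds were 1.36, 1.63 and 1.55. The macrophage marker list stood at 10719, 7600, 4426 and 7058 CPM and the red blood cell list at 301, 518, 3645 and 17.5 CPM, and the part of these lists in the result was not tested. In stromal-gated cells the sums were 668, 862, 1165 and 1006 CPM in the same order, which is 1.29-fold, 1.74-fold and 1.5-fold above WT. All 3 obese libraries were above WT in both lineages, and all 3 ratios of a lineage share the same WT library. Over all quality-passing cells the sum was 723, 1273, 2826 and 1466 CPM, a figure that also moves with the mix of cells in a library.

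The 10 pools of at least 100 cells can be put in order by the summed level. Macrophages of 16-week db/db, HFD and 8-week db/db came first, followed by stromal cells of 16-week db/db (1165 CPM), endothelial cells of HFD (1148 CPM), stromal cells of HFD and of 8-week db/db, macrophages of WT, endothelial cells of 16-week db/db (759 CPM) and stromal cells of WT. 2 pairs of neighbours in this order, stromal 16-week db/db with endothelial HFD and stromal 8-week db/db with macrophages of WT, did not differ beyond counting error. In WT, macrophages and stromal cells were close, with 1.26-fold more in macrophages, and in 16-week db/db the ratio between the same lineages was 3.05-fold.

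**Figure D1:**
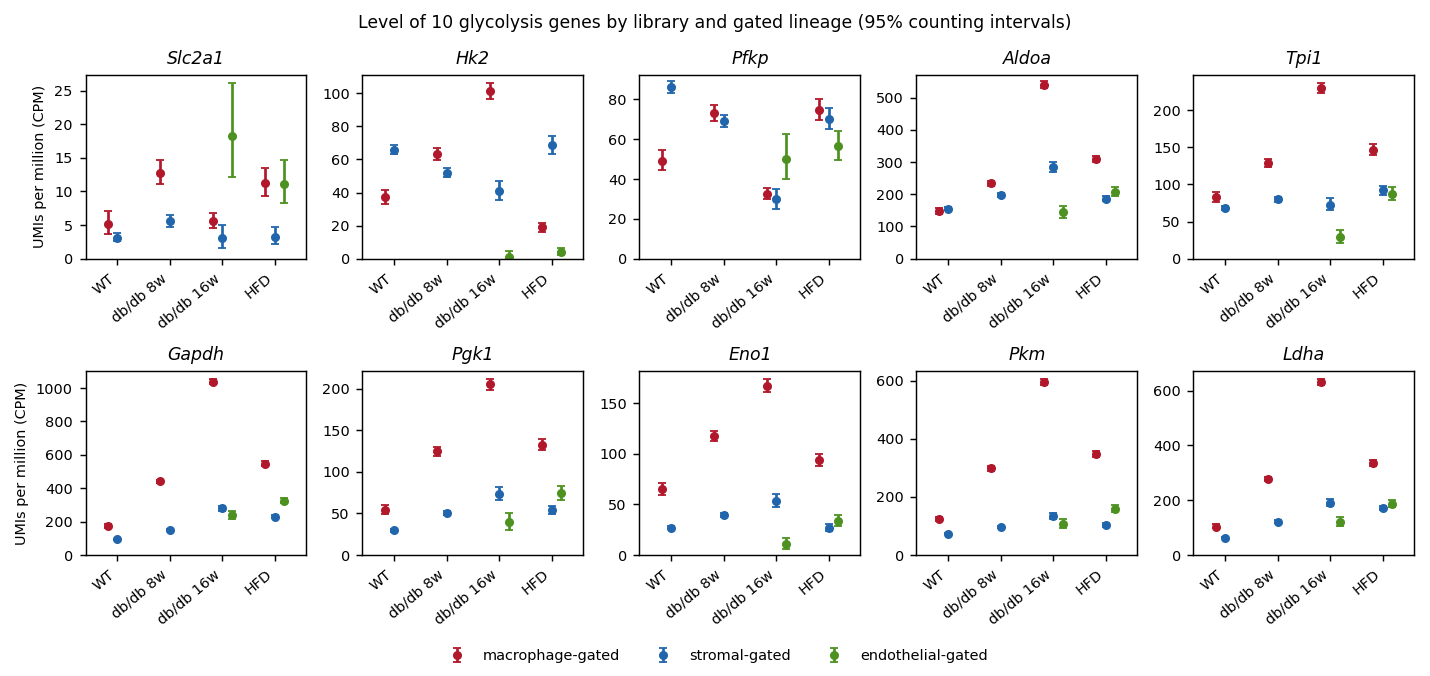
Level of each of the 10 genes in CPM (y axis, from 0, a separate scale per gene) by library (x axis), with 1 point per gated lineage pool of at least 100 cells and 95% counting intervals as bars. For 8 of the genes the 16-week db/db macrophages have the highest point, Gapdh reaching 1040 CPM against 174 CPM in WT macrophages, while Pfkp in macrophages is lowest in 16-week db/db at 32.7 CPM.

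Calls for single genes needed at least 20 CPM in either pool and a ratio of at least 1.5-fold with 10 CPM added to both levels, as no spread between mice could be had. In macrophages 9 of the 10 genes passed the level filter in each comparison, Slc2a1 being below it. In 8-week db/db, 7 members were called higher and 0 lower, where 12.4% of all 5713 genes were called higher and 9.45% lower. In 16-week db/db, 8 were called higher and 0 lower, against 28.6% and 31.3% of 6049 genes. In HFD, 6 were called higher and 1 (Hk2) lower, against 23.9% and 15.7% of 6076 genes. At 2-fold, 4, 8 and 5 members were higher in 8-week db/db, 16-week db/db and HFD, beside 3.47%, 17% and 8.82% of all genes, and 0 were lower (3.29%, 18.8% and 8.29%). The median log2 ratio of all 10 members, with 10 CPM added, was 0.70, 1.56 and 0.89 in 8-week db/db, 16-week db/db and HFD, where that of all genes past the filter was 0.04, -0.06 and 0.16.

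Ldha, Gapdh and Pkm, late in the pathway, were called at least 2-fold higher in macrophages of all 3 obese libraries. Ldha (chr7:46841475-46855627, + strand, GRCm38) was at 104 CPM in WT, 278 CPM in 8-week db/db, 631 CPM in 16-week db/db and 335 CPM in HFD, and its log2 ratios to WT of 1.42, 2.60 and 1.69 were the highest of the 10 genes in each obese library. Gapdh (chr6:125161715-125166467, - strand) was at 174, 441, 1040 and 547 CPM in the same order. Pkm (chr9:59656368-59679375, + strand) was at 124, 298, 596 and 348 CPM. Each of these genes had the order WT, 8-week db/db, HFD, 16-week db/db, with intervals that did not overlap between any 2 libraries. Gapdh has many near-identical processed pseudogenes, to which its reads may be split or lost in counting, and leaving it out of the sum gave log2 ratios of 0.99, 1.91 and 1.14.

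Pgk1, Aldoa and Tpi1 followed the same order of libraries. Pgk1 (chrX:106187100-106203699, + strand) stood at 54.7 CPM in WT macrophages, 125 CPM in 8-week db/db, 206 CPM in 16-week db/db and 133 CPM in HFD, where the intervals of 8-week db/db (120 to 130) and HFD (126 to 140) overlapped. Aldoa (chr7:126795234-126800751, - strand) stood at 147, 234, 540 and 310 CPM, with log2 ratios of 0.67, 1.88 and 1.07. Tpi1 (chr6:124810586-124814296, - strand) stood at 82.6, 129, 230 and 147 CPM. Eno1 (chr4:150236721-150248879, + strand) broke the order: its 93.4 CPM in HFD (87.7 to 99.4) lay below its 118 CPM in 8-week db/db (113 to 123), although both were above the 65.5 CPM of WT.

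The genes of the first steps did not move together. Hk2 (chr6:82725025-82774454, - strand) was at 37.1 CPM in WT macrophages (32.8 to 41.7), 63.2 CPM in 8-week db/db (59.5 to 67.1), 101 CPM in 16-week db/db (96.6 to 106) and 18.9 CPM in HFD (16.4 to 21.7). It was thus above WT in both db/db libraries and below WT in HFD, with log2 ratios of 0.77, 1.45 and -0.97. Pfkp (chr13:6579768-6648777, - strand) showed another split, at 49.3, 73.3, 32.7 and 74.8 CPM, so that 16-week db/db was the library below WT, by a log2 ratio of -0.59 (-0.79 to -0.40). Slc2a1 (chr4:119108711-119137983, + strand) was sparse, with 38, 220, 99 and 120 UMIs in the whole macrophage pools. Its level was 5.12, 12.8, 5.64 and 11.3 CPM, and the log2 ratio of 0.14 in 16-week db/db (-0.41 to 0.72) was not separable from 0 at this depth.

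**Figure D2:**
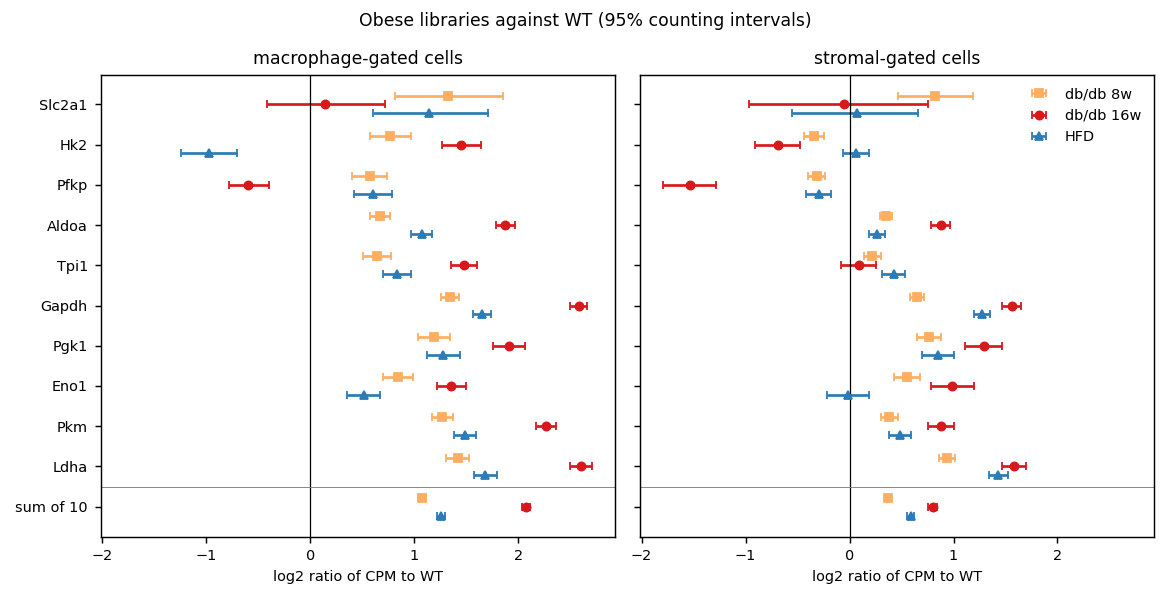
Log2 ratio of CPM to WT (x axis, same scale in both panels) for each of the 10 genes and for their sum (y axis), in macrophage-gated and stromal-gated cells, with 1 marker per obese library and 95% counting intervals. Ldha lies farthest right in macrophages in each library (1.42, 2.60 and 1.69), and Hk2 in HFD (-0.97) and Pfkp in 16-week db/db (-0.59) lie left of 0.

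Between the obese libraries, 16-week db/db macrophages were above those of 8-week db/db by a log2 ratio of 1.0 for the sum (0.98 to 1.02), with 7 members called higher and 1 (Pfkp) lower where 19.1% of genes were called higher and 25.4% lower. Against HFD the sum was 0.81 higher on the log2 scale, and 8 members were called higher and 1 lower, where 15.9% and 27.9% of genes were called. The widest gap was in Hk2, with a log2 ratio of 16-week db/db to HFD of 2.42 (2.21 to 2.64), and Pfkp ran the other way at -1.20 (-1.35 to -1.04). Between the db/db libraries, age and the features of the 16-week db/db library named above cannot be told apart. Against HFD, genotype and diet cannot be told apart from these either.

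Windows of 250 bases that end just before 1 RefSeq start site each of Ldha, Pgk1, Gapdh and Hk2 are printed below, since the first 3 genes moved together across libraries and Hk2 did not, and none of these windows overlaps an annotated exon (sequences from the RefSeq promoter table, GRCm38.p6, compared with GENCODE M21). Each runs 5′ to 3′ on the strand of the gene, and capitals mark ACGTG or GCGTG, the core letters known for binding of hypoxia-inducible factors, and their reverse complements CACGT and CACGC. The Ldha and Gapdh windows lie between exons inside the annotated span of the same gene, and the windows of Pgk1 and Hk2 lie outside annotated genes.
Ldha (chr7:46845554-46845803, + strand): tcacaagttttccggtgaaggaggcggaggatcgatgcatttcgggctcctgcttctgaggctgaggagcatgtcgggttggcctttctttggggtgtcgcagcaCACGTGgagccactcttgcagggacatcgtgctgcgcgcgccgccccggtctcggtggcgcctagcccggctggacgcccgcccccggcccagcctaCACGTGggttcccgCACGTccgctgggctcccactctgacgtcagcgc
Pgk1 (chrX:106186850-106187099, + strand): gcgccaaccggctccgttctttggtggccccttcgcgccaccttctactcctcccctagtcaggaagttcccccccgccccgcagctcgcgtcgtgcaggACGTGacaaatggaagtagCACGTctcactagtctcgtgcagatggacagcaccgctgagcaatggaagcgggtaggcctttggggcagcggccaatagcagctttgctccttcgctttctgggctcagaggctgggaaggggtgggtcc
Gapdh (chr6:125165774-125166023, - strand): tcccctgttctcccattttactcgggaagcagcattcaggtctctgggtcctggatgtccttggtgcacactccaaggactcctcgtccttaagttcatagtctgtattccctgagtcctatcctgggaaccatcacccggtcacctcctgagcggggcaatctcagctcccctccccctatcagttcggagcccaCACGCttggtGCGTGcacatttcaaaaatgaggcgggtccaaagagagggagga
Hk2 (chr6:82774455-82774704, - strand): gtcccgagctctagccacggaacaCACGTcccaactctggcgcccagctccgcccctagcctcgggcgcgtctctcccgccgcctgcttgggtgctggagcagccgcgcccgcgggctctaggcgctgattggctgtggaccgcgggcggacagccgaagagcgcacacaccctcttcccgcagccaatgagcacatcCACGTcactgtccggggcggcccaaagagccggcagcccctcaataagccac
The printed Ldha window held 5 matches at 3 places, because CACGTG, the palindrome that fits both strands, occurs at 2 of them and is counted on each, and the other 3 printed windows held 2 matches each. A further Ldha window, before another RefSeq start site (chr7:46846832-46847081), held 1 match and is not printed. A window with at least 1 match was found for 9 of the 10 genes, Tpi1 being the exception, where 41.5% of the 27025 genes of the table had one. Genes can have more than 1 window: counted by window, 13 of the 16 windows of the 10 genes held a match, beside 38.6% of all 32851. Whether these letters have a part in the levels of any of the 10 genes was not tested. A match is a run of letters and not a bound site.

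Stromal cells of the obese mice showed a smaller difference, and Ldha, Gapdh and Pgk1 were each higher in all 3 obese libraries. Stromal cells gated on Pi16-type progenitor genes, described below, numbered 2696, 1606, 23 and 167 in WT, 8-week db/db, 16-week db/db and HFD. Those gated on Col15a1-type genes numbered 623, 2969, 1054 and 1374. The part of this mix in the stromal ratios was not tested. In WT, 8-week db/db, 16-week db/db and HFD Ldha was at 63.8, 122, 191 and 172 CPM, and its log2 ratios of 0.94, 1.58 and 1.43 were again the highest of the 10. Gapdh was at 95, 149, 280 and 229 CPM, and Pgk1 at 30.03, 50.9, 73.5 and 54.3 CPM. For Ldha and Gapdh all 4 libraries were separated by their intervals except Ldha of 16-week db/db (179 to 204) and HFD (164 to 180), which overlapped. Calls of at least 1.5-fold were 3 members higher and 0 lower in 8-week db/db (7.39% and 5.79% of 6318 genes), 6 higher and 1 lower in 16-week db/db (20.6% and 20.6% of 6621 genes) and 3 higher and 0 lower in HFD (16.4% and 12.4% of 6673 genes). At 2-fold, 0, 3 and 2 members were higher, beside 2.99%, 9.44% and 7.28%, and 0, 1 and 0 were lower (1.77%, 10.2% and 5.59%). All 10 members had median log2 ratios of 0.34, 0.79 and 0.31, beside 0.02, 0.01 and 0.08 over all genes.

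Aldoa, Pkm, Eno1 and Tpi1 differed less in stromal cells. Aldoa was at 155, 198, 285 and 186 CPM and Pkm at 73.5, 95.9, 135 and 103 CPM, both highest in 16-week db/db. Eno1 was at 26.9, 39.5, 53.4 and 26.7 CPM, with HFD not separable from WT (log2 ratio -0.01, -0.22 to 0.19). Tpi1 stayed between 68.5 and 91.9 CPM in all 4 libraries, and its highest level was that of HFD.

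Pfkp and Hk2 went the other way in stromal cells. Pfkp was at 86.2 CPM in WT (83.1 to 89.3), 69.2 CPM in 8-week db/db (66.2 to 72.3), 29.7 CPM in 16-week db/db (24.98 to 35.1) and 70.1 CPM in HFD (64.9 to 75.7), so that all 3 obese libraries were below WT. Hk2 was at 65.9, 52.0, 41.0 and 68.8 CPM, below WT in both db/db libraries and, with a log2 ratio of 0.06 (-0.07 to 0.19), not separable from it in HFD. Slc2a1 had 3.12, 5.53, 3.02 and 3.28 CPM, with 8-week db/db alone separated from WT. The stromal pools also held 120, 335, 189 and 451 CPM of the macrophage marker list. Among stromal-gated cells without a single UMI of that list, an alternative chosen after seeing the data, the summed log2 ratios to WT were 0.27, 0.58 and 0.53 in place of 0.37, 0.80 and 0.59. The stromal list in macrophage pools stood at 736, 388, 21.3 and 305 CPM, highest in WT.

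Within each library the 10 genes were on the whole higher in macrophages than in stromal cells, but not each of them. The log2 ratio of the sum was 0.33 in WT, 1.04 in 8-week db/db, 1.61 in 16-week db/db and 1.0 in HFD, positive in 4 of 4 libraries. At least 1.5-fold higher in macrophages were 5, 6, 8 and 7 members, beside 23.8%, 22.4%, 23.4% and 22.6% of all genes. Lower were 2 in WT (Hk2 and Pfkp, 28.9% of all genes), 0 in 8-week db/db (27.5%), 0 in 16-week db/db (31.8%) and 1 in HFD (Hk2, 26.1%). Hk2 changed side between libraries: its log2 ratio of macrophages to stromal cells was -0.83 in WT, 0.28 in 8-week db/db, 1.31 in 16-week db/db and -1.86 in HFD. Tpi1, Gapdh, Pgk1, Eno1, Pkm and Ldha were higher in macrophages in all 4 libraries, as were the sparse counts of Slc2a1.

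Endothelial cells could be described in 16-week db/db (1225 cells) and HFD (888 cells) alone, as the other libraries had 9 and 63. They were nearly without Hk2: 2 UMIs in all of 16-week db/db (1.26 CPM, 0.15 to 4.54) and 17 in HFD (3.85 CPM, 2.24 to 6.17), against 41.0 and 68.8 CPM in the stromal cells of the same libraries. Slc2a1, known as a transporter of blood vessel walls, was at 18.2 CPM in 16-week db/db (12.2 to 26.2), from 29 UMIs. This was above the 5.64 CPM of macrophages and the 3.02 CPM of stromal cells there. In HFD it was at 11.1 CPM, level with macrophages (11.3 CPM). The summed level was lower in 16-week db/db than in HFD, at 759 against 1148 CPM. In the 16-week db/db endothelial pool red blood cell genes made up 126217 CPM and the median cell had 1024 UMIs, against 94.1 CPM and 4514 UMIs in HFD. The part of red blood cell RNA and depth in this difference and in the level of Slc2a1 was not tested.

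Lipid-associated macrophages (LAMs), which take up and break down lipid, carried more glycolysis transcripts than perivascular macrophages of the same library. The subsets were gated among macrophages in the same way as lineages, on Trem2, Cd9, Gpnmb, Spp1 and Mmp12 for LAMs and on Lyve1, Folr2, Cd163, F13a1 and Cbr2 for perivascular macrophages. In WT, 8-week db/db, 16-week db/db and HFD there were 8, 513, 1449 and 842 LAM-gated and 974, 1480, 355 and 89 perivascular-gated cells. The summed level in perivascular-gated cells was 799, 1086, 1303 and 1235 CPM. In LAM-gated cells it was 2258 CPM in the 8 cells of WT (1987 to 2556), 2568 CPM in 8-week db/db, 3973 CPM in 16-week db/db and 2238 CPM in HFD. The log2 ratio of LAMs to perivascular macrophages was 1.5, 1.24, 1.61 and 0.86, positive in 4 of 4 libraries. LAM-gated cells were also deeper, with median UMIs of 7476 to 13450.5 against 3056 to 6068. Among cells of 2000 to 8000 UMIs the log2 ratio was 1.01, 1.02, 1.19 and 0.75.

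Among the single genes Ldha separated the subsets most steadily. Its log2 ratio of LAMs to perivascular macrophages was 1.98 in WT, 1.72 in 8-week db/db, 2.10 in 16-week db/db and 1.47 in HFD, and its level in perivascular macrophages kept to 98.2, 138, 169 and 139 CPM while it reached 388, 454, 725 and 384 CPM in LAMs. At least 1.5-fold higher in LAMs were 7 of 9 members past the filter in 8-week db/db, 8 of 9 in 16-week db/db and 4 of 9 in HFD, beside 12.9%, 11.1% and 16% of all genes, and none was called lower (19.2%, 28.6% and 19.9% of all genes). In the 8 LAM-gated cells of WT 9 of 10 were called higher, where 29.1% of all genes were. Hk2 and Pfkp were not separated in 8-week db/db, with log2 ratios of -0.06 (-0.26 to 0.14) and -0.18 (-0.37 to 0.01), and Hk2 in HFD had -0.31 (-1.23 to 0.78).

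Since the share of LAMs differed so much between libraries, the ratios to WT were also taken within each subset, as an alternative added after seeing the data. In perivascular macrophages the summed log2 ratios were 0.44 in 8-week db/db (0.39 to 0.49), 0.71 in 16-week db/db (0.63 to 0.78) and 0.63 in HFD (0.49 to 0.76), in place of 1.07, 2.07 and 1.26 in all macrophages. Gapdh, at 157, 257, 393 and 325 CPM, had the highest ratio of the 10 in 16-week db/db and HFD and Hk2 in 8-week db/db (log2 ratio 0.87), while Aldoa in 8-week db/db was level with WT (log2 ratio -0.10, -0.23 to 0.03). Called at least 1.5-fold higher were 2, 5 and 4 members, beside 4.64%, 28% and 23.3% of all genes, and 0 lower (4.16%, 16.5% and 13.5%), so that for 16-week db/db and HFD the background of called genes was itself high. Hk2 stood at 35.0, 63.9, 62.8 and 24.8 CPM, above WT in both db/db libraries, whereas its HFD level came from 10 UMIs (11.9 to 45.7) and was not separable from WT. The HFD cells of this gate carried 2251 CPM of its marker list against 5215 to 5969 CPM in the other libraries. In LAM-gated cells the log2 ratios to the 8 cells of WT were 0.19 (0.005 to 0.37), 0.82 (0.64 to 1.0) and -0.01 (-0.19 to 0.17), so that HFD was not separable from WT in a comparison that rests on 8 cells.

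**Figure D3:**
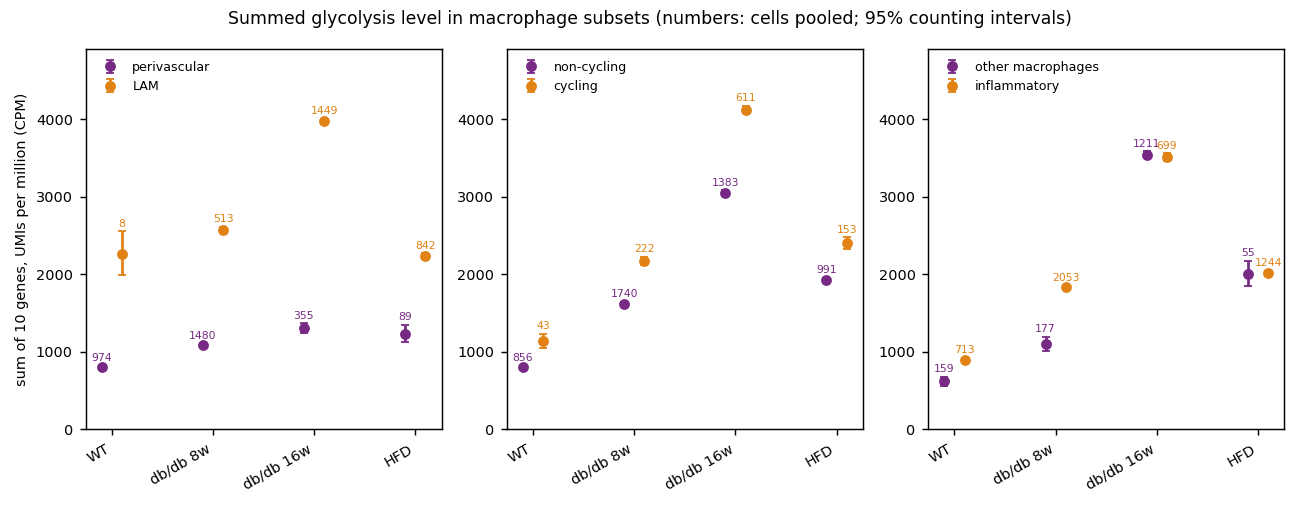
Summed level of the 10 genes (y axis, CPM, from 0) by library (x axis) in subsets of macrophage-gated cells, with 95% counting intervals and the number of cells pooled beside each point. LAM-gated cells lie above perivascular-gated cells in each library (3973 against 1303 CPM in 16-week db/db), while inflammatory-gated and other macrophages lie together in 16-week db/db (3512 and 3542 CPM) and HFD.

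Cycling macrophages, with at least 3 UMIs of Mki67, Top2a, Birc5, Ube2c, Cdk1, Rrm2 and Pclaf, had summed levels of 1136, 2170, 4123 and 2402 CPM, against 798, 1620, 3045 and 1923 CPM in macrophages with 0 UMIs of the list. The log2 ratio was 0.51, 0.42, 0.44 and 0.32. Cycling cells were also deeper, with median UMIs of 9731 to 11475 against 4335 to 5476, and among cells of 2000 to 8000 UMIs the log2 ratio was -0.14 in WT, 0.01 in 8-week db/db, 0.26 in 16-week db/db and -0.31 in HFD, so that its sign turned in WT and HFD. Hk2 was lower in cycling cells of 16-week db/db (82.6 against 116 CPM) and HFD (11.9 against 20.1 CPM). The difference from WT was nearly as large without cycling cells: in non-cycling macrophages the summed log2 ratios to WT were 1.02, 1.93 and 1.27.

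Macrophages with at least 3 UMIs of inflammatory genes (Il1b, Ccl3, Ccl4, Tnf, Cxcl2, Nlrp3) were above those with 0 UMIs in WT and 8-week db/db and level with them in the other libraries. The sums were 897 against 618 CPM in WT, 1831 against 1104 CPM in 8-week db/db, 3512 against 3542 CPM in 16-week db/db and 2018 against 2009 CPM in HFD. In 8-week db/db the intervals of 9 members and in WT those of 6 lay above equality, and in 16-week db/db those of Hk2 and Slc2a1 alone, where those of 3 members lay below it. The inflammatory-gated cells were also deeper, with median UMIs of 6175.5 to 7227 against 2524 to 4805. Among cells of 2000 to 8000 UMIs the log2 ratio was 0.26 in WT, 0.46 in 8-week db/db, -0.26 in 16-week db/db and -0.12 in HFD. Hk2 was higher in the inflammatory-gated cells of 3 libraries, at 41.5 against 16.7 CPM in WT, 66.3 against 18.4 CPM in 8-week db/db and 127 against 71.9 CPM in 16-week db/db, and in HFD it was at 18.7 against 20.3 CPM from few cells. The inflammatory list itself stood at 13249, 21867, 799 and 4357 CPM in the macrophage pools, so that 16-week db/db had the highest glycolysis sum and the lowest inflammatory list. In stromal cells, those gated on Pi16-type progenitor genes and on Col15a1-type genes had sums of 685 and 630 CPM in WT, 785 and 890 CPM in 8-week db/db and 826 and 1030 CPM in HFD, with 477 CPM from 23 cells and 1177 CPM in 16-week db/db. The highest log2 ratio of Pi16-type to Col15a1-type cells was that of Pfkp in 8-week db/db (0.57) and HFD (0.55). The lowest there was that of Ldha (-0.62 and -1.15). In WT the highest was Gapdh (0.63) and the lowest Hk2 (-0.48).

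To see whether the levels came from a few cells, each cell was thinned to 2000 UMIs and shallower cells were left out. Macrophages then had a median of 1 UMI of the 10 genes in WT (1002 cells), 2 in 8-week db/db (2225 cells), 5 in 16-week db/db (2098 cells) and 3 in HFD (1418 cells). Before thinning the means were 6.02, 12.2, 26.4 and 15 UMIs per cell. The difference was not confined to the cells with the most UMIs of these genes, as the medians show, and the 10th to 90th percentiles ran from 0 to 3 in WT, 0 to 6 in 8-week db/db, 1 to 11 in 16-week db/db and 1 to 7 in HFD. The share of macrophages without a UMI of any of the 10 genes was 28.5%, 12.5%, 3.38% and 7.05%. In stromal cells the medians were 1, 1, 2 and 2, next to the step of 1 UMI, and 33.6%, 26.2%, 21.1% and 18.1% of cells had none. LAM-gated cells had medians of 4, 7 and 4 in 8-week db/db, 16-week db/db and HFD, against 2 in perivascular macrophages of each of these libraries. Perivascular macrophages of WT had a median of 1. The medians of all macrophages also move with the share of LAMs in a library. Left out as too shallow were 38, 267, 263 and 9 macrophages and 458, 2715, 377 and 33 stromal cells.

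**Figure D4:**
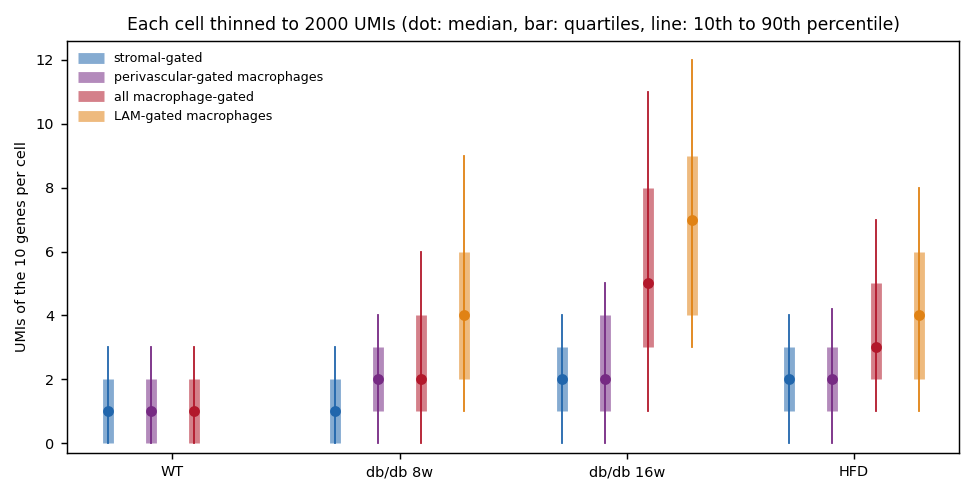
UMIs of the 10 genes per cell after each cell was thinned to 2000 UMIs (y axis) by library (x axis), in stromal-gated cells, perivascular-gated, all and LAM-gated macrophages, with the median as a dot, the quartiles as a bar and the 10th to 90th percentile as a line (pools under 50 cells not drawn). The median of all macrophages is 1 in WT and 5 in 16-week db/db, where the 90th percentile is 11.

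For 7 of the 10 genes relatives that do the same step were counted, and the share of the family's UMIs describes which form prevailed, with the limit that 3′ UMIs of different genes are not captured alike. Hk2 made up 40.4% of the UMIs of Hk1, Hk2 and Hk3 in WT macrophages (36.7 to 44.2), 48.1% in 8-week db/db (46.0 to 50.2), 51.5% in 16-week db/db (49.8 to 53.2) and 18.7% in HFD (16.4 to 21.2). In stromal cells it was the leading hexokinase in all 4 libraries, with 72.3%, 65.2%, 58.3% and 65.9%, and in endothelial cells it had 3.39% in 16-week db/db (0.413 to 11.7) and 7.30% in HFD (4.31 to 11.4). Within HFD the share of Hk2 thus ran from 7.30% in endothelial cells over 18.7% in macrophages to 65.9% in stromal cells. Pfkp held 72.3%, 79.4%, 78.3% and 85.0% of the phosphofructokinase UMIs of macrophages and 84.4%, 82.1%, 66.7% and 81.2% of those of stromal cells, where its lowest share was that of 16-week db/db.

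Ldha was nearly the sole lactate dehydrogenase of macrophages, with 97.3% to 98.6% of the UMIs of Ldha and Ldhb in the 4 libraries, and had 85.3% to 93.3% in stromal cells, lowest in HFD. Eno1 held 88.4% to 95.3% of enolase UMIs in macrophages and 70.4% to 81.6% in stromal cells. Aldoa held at least 99.05% of aldolase UMIs in both lineages, and no UMI of Pklr, the liver and red cell pyruvate kinase, was counted in any of these pools. Slc2a1 made up 41.8% of the UMIs of 4 glucose transporters in WT macrophages (31.5 to 52.6), 54.6% in 8-week db/db, 45.2% in 16-week db/db and 61.9% in HFD (54.6 to 68.7).

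**Figure D5:**
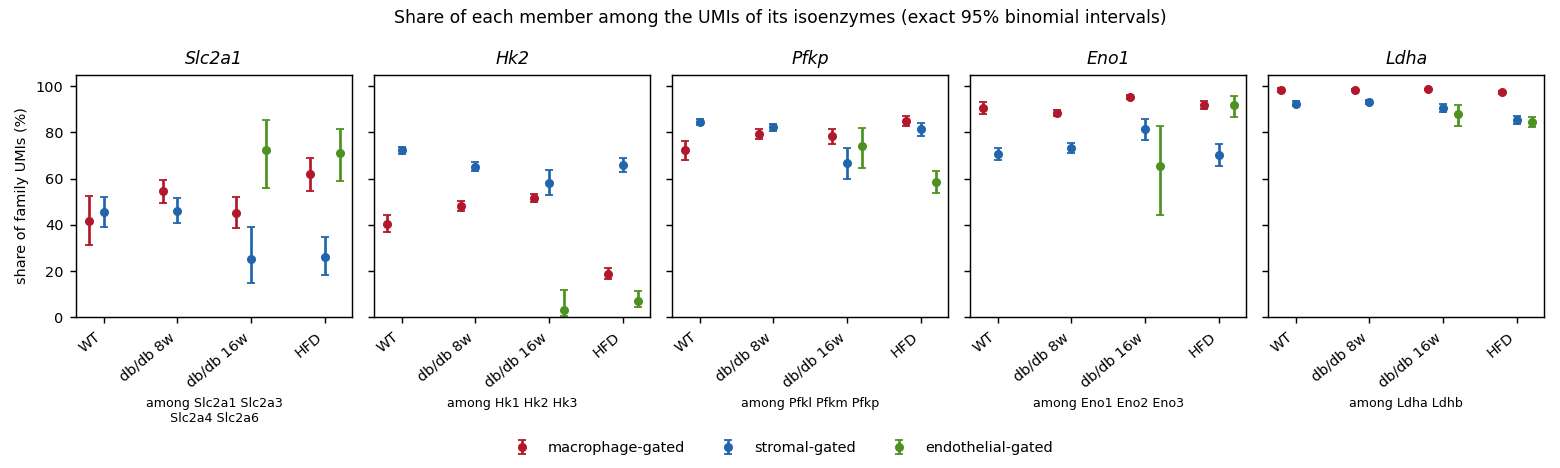
Share of Slc2a1, Hk2, Pfkp, Eno1 and Ldha in the UMIs of their gene families (y axis, percent, from 0) by library (x axis), with 1 point per gated lineage and exact 95% binomial intervals. Hk2 takes 58.3% to 72.3% in stromal cells, 18.7% to 51.5% in macrophages and at most 7.30% in endothelial cells.

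Other genes of glucose metabolism were taken from lists of names, chosen with earlier results of these data known. Of 15 further glycolysis genes, 4 passed the level filter in macrophages and 1, 2 and 2 were called at least 1.5-fold higher in 8-week db/db, 16-week db/db and HFD (backgrounds as above), with 0 lower. Pgam1, the phosphoglycerate mutase between Pgk1 and Eno1 in the pathway, was the one past 2-fold in all 3, at 73.4, 160, 311 and 171 CPM. Gpi1, the most abundant of the 4 in WT, was called in none of the 3, at 192, 187, 233 and 166 CPM. In stromal cells Gpi1 was at 106, 83.3, 97.8 and 79.8 CPM. The pentose phosphate pathway, which branches off after hexokinase and makes NADPH, had 5 of 7 genes past the filter, of which 3, 4 and 5 were called higher and 0 lower, Tkt (transketolase) being at 82.6, 170, 250 and 211 CPM. Of 13 genes of lactate and pyruvate handling 8, 9 and 8 passed, of which 2, 4 and 2 were called higher and 0, 1 and 1 lower, and the higher ones included both subunits of the mitochondrial pyruvate carrier, Mpc1 (43.1, 76.1, 143 and 126 CPM) and Mpc2 (62.7, 100.2, 191 and 132 CPM). Slc16a3, a lactate exporter, was called lower in HFD, at 9.22 against 22.1 CPM.

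Regulators and hypoxia genes were called in both directions. Of 13 regulators 4, 5 and 6 passed the filter, of which 0, 1 and 1 were called higher and 0, 3 and 2 lower in macrophages (all genes: 12.4%, 28.6% and 23.9% higher, 9.45%, 31.3% and 15.7% lower), with Hif1a, a hypoxia-inducible factor, at 92.2, 88.8, 52.3 and 63.6 CPM. The largest of the lower calls in both 16-week db/db and HFD was Pfkfb3, at 181, 134, 14.0 and 17.9 CPM. Of 14 known hypoxia targets outside glycolysis 8, 9 and 8 passed the filter, of which 2, 3 and 3 were called higher and 2, 3 and 2 lower, and in 16-week db/db these shares were near those of all genes. Hmox1, which breaks down heme, was the one past 2-fold lower in all 3 obese libraries, at 1245, 482, 279 and 120 CPM, while Mif was at 75.2, 136, 385 and 150 CPM and Ndrg1 at 6.74, 64.5, 23.2 and 33.6 CPM. The perivascular list stood at 4896, 2928, 726 and 456 CPM in these macrophage pools and the inflammatory list at 13249, 21867, 799 and 4357 CPM. The part of this mix in the levels of Hmox1, Pfkfb3 and the other listed genes was not tested. In stromal cells Epas1, another hypoxia-inducible factor, was at 11.1, 44.6, 48.3 and 161 CPM and Myc, a growth regulator, at 113, 51.3, 24.6 and 44.2 CPM. Epas1 is also strongly expressed by endothelial cells, whose marker list stood at 5.51, 32.0, 79.95 and 323 CPM in these stromal pools, and the part of such cells was not tested. Among the other lists in stromal cells, where 7.39%, 20.6% and 16.4% of all genes were called higher and 5.79%, 20.6% and 12.4% lower, the further glycolysis genes had 0 of 3, 0 of 3 and 1 of 4 past the filter called higher and 0 lower. Pentose phosphate genes had 0, 2 and 1 of 5 higher and 0 lower. Lactate and pyruvate genes had 0, 2 and 2 of 7 higher and 1 lower each time (Pdk4, an inhibitor of pyruvate dehydrogenase). Hypoxia targets had 4 of 11, 3 of 11 and 4 of 12 higher and 2 lower each time. Of 7 glycogen genes 3 passed the filter in stromal cells, and 1, Pygl (liver-type glycogen phosphorylase), was called lower in each library, at 66.3, 30.4, 9.70 and 25.3 CPM. Of 5 gluconeogenesis genes 1, 1 and 2 passed there and Pck1 was called higher in HFD alone, while in macrophages 0 passed, and glycogen genes had 0 of 1, 1 of 1 and 1 of 2 called higher and 0 lower.

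Across the 10 pools of at least 100 cells, each gene was also set against the mean log2(CPM + 10) of the other members, as a description over pools that share libraries and depth. Pearson's r was 0.97 for Pgk1, 0.94 for Pkm, 0.91 for Tpi1 and Ldha, 0.89 for Eno1, 0.88 for Aldoa and 0.85 for Gapdh. It was 0.27 for Hk2, -0.02 for Slc2a1 and -0.31 for Pfkp. 7 members thus went up and down together over lineages and libraries, and the 3 that open the pathway did not join them. Of 3230 genes ranked in the same way against the mean of all 10, the closest were Pgam1 (r = 0.98), Anp32b (0.98), Vma21 (0.97), Psmd13 (0.97) and Tkt (0.97), so that the first and the fifth were themselves glucose enzymes.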

How the data were processed

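Raw counts of UMIs per gene and cell barcode were used as deposited. The authors made them from 10x Genomics 3′ libraries of BAT SVF cells with Cell Ranger on the mouse mm10 genome (version 7.1.0 in the submitters' notes and 6.0.0 in the file headers), and the files held called barcodes before any quality filter. The extraction text of the labels describes bulk RNA and was not used. Quality limits followed the study's methods. The 10 members and all gene and marker lists were chosen with earlier results of these data known.

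UMIs were summed over the cells of a pool and divided by all UMIs of the pool (CPM). Levels had exact Poisson intervals, ratios exact conditional binomial intervals and shares exact (Clopper-Pearson) binomial intervals, all at 95%, in Python 3.11.15 with scipy 1.17.1. These cover counting error only. Library totals were 28504069 to 61828295 UMIs. No test was run, each group being 1 library. The scripts were tested on simulated data. Doublets were not called; the gate removes only cells with mixed markers, and marker lists of other lineages are given for each pool. Of the gene identifiers, 99.6% were found in GENCODE M21, which gave the coordinates.

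Besides the members, named genes were those of the pathway lists past 2-fold (10 CPM added) in the same direction in all 3 obese libraries, at most 10 per lineage, and the 5 genes of highest correlation. Gpi1, Pfkfb3, Tkt, Mpc1, Mpc2, Slc16a3, Hif1a, Mif, Ndrg1, Pdk4, Pygl and Pck1 were named after their values were seen. Alternatives were another denominator, a mean over genes, a depth band, no mitochondrial limit, a stricter gate, centring on all genes and removal of cycling cells, with others added after seeing the data.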

Additional observations from a re-analysis of the deposited data

Results flagged for a closer look

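Hk2 and Pfkp moved in opposite directions between lineages of the same obese library, or between obese libraries in the same lineage, with intervals clear of 0 on both sides. With 1 library per group none of these differences was tested. In the 8-week db/db library the log2 ratio of Hk2 to WT was 0.77 in macrophages and -0.34 in stromal cells, and at 16 weeks it was 1.45 and -0.69. Within macrophages Hk2 was above WT in both db/db libraries (0.77 and 1.45) and below WT in HFD (-0.97). For Pfkp the values in macrophages and stromal cells were 0.57 and -0.32 at 8 weeks in db/db and 0.60 and -0.30 in HFD. Within macrophages Pfkp was above WT in 8-week db/db (0.57) and HFD (0.60) and below it in 16-week db/db (-0.59). Genotype, diet, age and library cannot be told apart in these values.

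Barcodes outside the lineage gates or over the mitochondrial limit are left out of the comparisons by lineage. The sum of the 10 genes was also higher there in obese libraries, but not each gene. In quality-passing cells that passed no lineage gate the summed log2 ratio to WT was 0.65 in 8-week db/db, 0.97 in 16-week db/db and 0.33 in HFD. In the same order 9, 7 and 6 members lay above WT and 1, 3 and 4 below it. The lowest were Pfkp in both db/db libraries (-0.31 and -1.04) and Hk2 in HFD (-1.20). In barcodes over the mitochondrial limit it was 0.40 in 8-week db/db (6166 barcodes) and 0.85 in HFD (11948 barcodes), against 1615 barcodes in WT, while the 55 such barcodes of 16-week db/db gave 0.39 (-0.10 to 0.84), not separable from 0. Over this limit 8, 6 and 8 members lay above WT in 8-week db/db, 16-week db/db and HFD, and 2, 4 and 2 below it. These differences, and the part of the mix of cells in them, were not tested.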

How the results depend on the processing

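No paired analysis was possible because each group is 1 library. Of 131 recomputed values 31 moved by less than their counting error, 94 moved by more and 6 changed sign; with so many UMIs small shifts count as moves. Values are summed log2 ratios, given for 8-week db/db, 16-week db/db and HFD against WT; the cause of the moves was not tested. In all cells (0.82, 1.97, 1.02) they were 0.84, 2.06 and 1.06 without mitochondrial and ribosomal protein genes in the denominator, 0.65, 1.34 and 0.69 as the mean of the genes' log2 ratios, 0.64, 1.64 and 1.02 in cells of 2000 to 8000 UMIs, 0.78, 1.98 and 0.89 without the mitochondrial limit, 0.79, 2.08 and 0.88 centred on all genes and 0.71, 1.72 and 0.83 without Gapdh. In macrophages (1.07, 2.07, 1.26) the same settings gave 1.12, 2.20 and 1.33, then 0.86, 1.41 and 0.83, then 0.80, 1.92 and 1.25, then 1.08, 2.11 and 1.13, then 1.03, 2.14 and 1.09, and 0.99, 1.91 and 1.14. A stricter gate gave 1.06, 2.10 and 1.30, leaving out cells with a cycling UMI 1.02, 1.93 and 1.27, perivascular cells alone 0.44, 0.71 and 0.63, cells without a stromal UMI (14 in WT) 0.85, 2.01 and 1.11, and LAMs alone 0.19, 0.82 and -0.013, where HFD changed sign. In stromal cells (0.37, 0.80, 0.59) the values were 0.37, 0.85 and 0.61 with the other denominator, 0.30, 0.46 and 0.40 as the mean, 0.42, 0.74 and 0.79 in the depth band, 0.35, 0.80 and 0.55 without the mitochondrial limit, 0.33, 0.70 and 0.55 with the stricter gate, 0.34, 0.79 and 0.51 centred, 0.31, 0.63 and 0.44 without Gapdh and 0.27, 0.58 and 0.53 in cells without a macrophage UMI. Choices made after seeing the data were those on Gapdh, LAMs or perivascular cells alone, and cells without UMIs of the other lineage.

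For macrophages to stromal cells in WT, 8-week db/db, 16-week db/db and HFD (0.33, 1.04, 1.61, 1.0) the other denominator gave 0.33, 1.08, 1.67 and 1.05, the mean 0.28, 0.84, 1.24 and 0.71 and the depth band 0.28, 0.65, 1.46 and 0.74. HFD was 0.88 without the mitochondrial limit, and the stricter gate gave 1.70 in 16-week db/db and 1.05 in HFD. For LAMs to perivascular cells the mean gave 0.93, 1.16 and 0.60 in the obese libraries, the depth band 1.01, 1.02 and 1.19 in WT and both db/db libraries, and leaving out cells with a cycling UMI 1.35 in 8-week db/db and 1.02 in HFD. Cycling against non-cycling cells gave 0.28, 0.31 and 0.17 as the mean in the obese libraries and -0.14, 0.012, 0.26 and -0.31 in the depth band, with WT and HFD reversed. Inflammatory against other cells gave 0.082 and -0.061 as the mean in 16-week db/db and HFD, both reversed from values near 0, and 0.26, 0.46, -0.26 and -0.12 in the depth band, the last reversed. Pi16-type against Col15a1-type cells gave 0.20, -0.10 and -0.70 in the depth band and -0.13 as the mean in 8-week db/db. Depth limits Slc2a1, at 38 to 220 UMIs per macrophage pool.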
